A study of Mus musculus with 4 samples.

Results

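Transcripts of 10 direct targets of the transcription factor p53 were followed across 4 Affymetrix Mouse Gene 2.0 ST arrays, 1 array for each of 4 groups of mouse embryos. The 10 genes, Cdkn1a, Mdm2, Ccng1, Trp53inp1, Sesn2, Phlda3, Eda2r, Bax, Aen and Zmat3, were taken by name as known p53 targets. They were chosen with earlier results of these data known. Of the 10, 9 had a transcript cluster that carries their symbol alone, among 22180 genes named in that way. Bax was not analysed here. At embryonic day 12.5 (E12.5) the head was taken from wild-type and from Tbx1 knockout (Tbx1KO) embryos, and at E13.5 the palatal shelves were taken from both genotypes, all on a mixed C57BL/6J x FVB/N background. Neither the Tbx1 allele nor any pooling of embryos is stated in the sources used here. Whole heads and dissected shelves are mixtures of tissues, so fewer cells of a type and less RNA per cell cannot be told apart.

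p53 is held at a low level in unstressed cells by the ubiquitin ligase Mdm2, and it accumulates after DNA damage or failed ribosome assembly. It then binds DNA as a tetramer and switches on genes that stop the cell cycle, start cell death, adjust metabolism and restrain p53 itself. Excess p53 activity in neural crest cells is a known cause of craniofacial malformation in mice, as in embryos short of the nucleolar protein Tcof1. Tbx1 encodes a T-box transcription factor of the pharyngeal apparatus, and the study asked which transcripts differ without it in the head and in the palate.

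p53 acts on its targets through a defined DNA element, and the promoters were searched for it first. The consensus p53 response element, 2 decamers side by side without a spacer, reads the same on both strands. It was compared with RefSeq promoter windows of the mouse assembly GRCm38.p6, which run from 250 bases before to 50 bases after a transcript start. Of the 9 measured targets, 7 had a window there (9 windows in all), and Trp53inp1 and Zmat3 are named only. The best match in each of the 3 windows below is in capitals, with 40 bases on either side, 5′ to 3′ on the strand of the gene. These windows are shown because they hold the closest matches among the measured targets.
Cdkn1a (chr17:29090888-29090987, plus strand): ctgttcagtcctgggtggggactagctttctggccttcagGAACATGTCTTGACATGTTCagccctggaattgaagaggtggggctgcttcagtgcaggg
Ccng1 (chr11:40755422-40755521, minus strand): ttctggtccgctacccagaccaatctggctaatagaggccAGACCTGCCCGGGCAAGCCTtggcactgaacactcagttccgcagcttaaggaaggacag
Aen (chr7:78895897-78895996, plus strand): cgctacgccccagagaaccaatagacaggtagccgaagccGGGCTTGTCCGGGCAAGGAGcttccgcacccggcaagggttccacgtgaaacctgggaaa

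The Cdkn1a and Ccng1 matches each departed from the consensus at 1 of 20 bases. Such a match, at 1 mismatch or fewer, was present in 29 of 32851 promoter windows (0.0883%). The Cdkn1a match lies 51 to 32 bases before the more distal of its 2 listed transcript starts, which are 2790 bases apart, and the window of the proximal start had no match better than 5 mismatches. The Ccng1 match lies 195 to 176 bases before its start. The Aen match departed at 3 of 20 bases, as closely as in 2067 windows (6.29%), and kept all 4 fixed C and G bases of the element. It lies between the 2 listed starts of Aen, which are 131 bases apart. The best matches at Mdm2, Phlda3 and Sesn2 had 5 mismatches and that at Eda2r had 6. A window of this length says nothing of elements in introns or farther upstream, where p53 also binds. The T-box half-site TCACACCT, sought on both strands, was present in the proximal Cdkn1a window and in no other window of these targets. Of all windows, 419 (1.28%) held it, and it did not overlap the capitalised matches.

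Values are log2 expression from RMA (robust multi-array average), on which a difference of 1 is a doubling. A gene entered a comparison when its higher array reached 6.16, the middle level of the named genes on these arrays. Of the 9 measured targets, 8 entered every comparison and Eda2r entered none. Differences within a tissue are knockout minus wild type, and with 1 array per group they have no replicate check and no p-value. Tbx1 itself was lower in the knockout array of both tissues, with differences of -0.57 in the head and -1.21 in the shelves. Levels are compared between arrays for 1 gene at a time, because probes of different genes differ in brightness.

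The 2 targets that act on p53 through its ligase, Mdm2 and Ccng1, had genotype differences between -0.061 and 0.10. Mdm2, the ligase that marks p53 for destruction, was at 8.39 in the wild-type head, 8.34 in the knockout head, 8.18 in the wild-type shelves and 8.24 in the knockout shelves. All 4 levels lay within 0.21 of each other, the smallest range of the 8 targets. Ccng1, cyclin G1, which brings a phosphatase to Mdm2, was at 9.27 and 9.37 in the wild-type and knockout head and at 9.67 and 9.60 in the wild-type and knockout shelves. The knockout differed from wild type by 0.10 in the head and by -0.061 in the shelves, and both shelf arrays lay above both head arrays.

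Cdkn1a, which encodes the cyclin-dependent kinase inhibitor p21, had the widest range of levels. It was at 8.68 in the wild-type head, 8.56 in the knockout head, 9.70 in the wild-type shelves and 9.12 in the knockout shelves. The wild-type shelf array stood highest and the knockout shelf array lay between it and the head arrays. The shelf difference of -0.58 was 1.49-fold, just short of the 1.5-fold used for counting, and it ranked 157 from the lowest among 11449 genes. In the head the difference was -0.13, which ranked 2178 from the lowest among 11364 genes.

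Among the targets tied to cell death, Aen was lower in the knockout array of both tissues. Aen, an exonuclease that digests nucleic acids during apoptosis, was at 6.69 in the wild-type head, 6.43 in the knockout head, 6.70 in the wild-type shelves and 6.07 in the knockout shelves. Its wild-type levels in the 2 tissues differed by 0.0096, whereas the knockout level in the shelves was just below the limit for entry. That limit is the middle level of the named genes, and whether the fold is understated at such a level was not tested. The shelf difference of -0.63 was 1.55-fold and ranked 135 from the lowest. The head difference of -0.26 was 1.20-fold and ranked 500 from the lowest. Phlda3, a pleckstrin-homology protein that restrains the survival kinase Akt, was at 6.87 and 6.79 in the wild-type and knockout head and at 7.56 and 7.44 in the wild-type and knockout shelves. Phlda3 thus differed by -0.082 and -0.12 between genotypes, less than between tissues. Eda2r, a receptor for the ectodysplasin isoform EDA-A2, was below the limit on every array, with levels of 4.22, 4.30, 4.24 and 4.51 in the same order, and gives no comparison.

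The targets that act on metabolism, autophagy and RNA had genotype differences between -0.23 and 0.15. Sesn2, a leucine sensor that restrains the growth kinase mTORC1, was at 6.61 and 6.51 in the wild-type and knockout head and at 6.59 and 6.74 in the wild-type and knockout shelves. The knockout array was the lower one in the head and the higher one in the shelves. Trp53inp1, a nuclear protein that promotes p53 phosphorylation and autophagy, was at 9.10 and 9.13 in the head and at 8.65 and 8.42 in the shelves. Its shelf difference of -0.23 ranked 943 from the lowest. Zmat3, a zinc-finger protein that binds RNA and alters splicing, was at 7.83 and 7.74 in the head and at 7.26 and 7.28 in the shelves. Both shelf arrays lay below both head arrays for Trp53inp1 and for Zmat3.

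**Figure D1:**
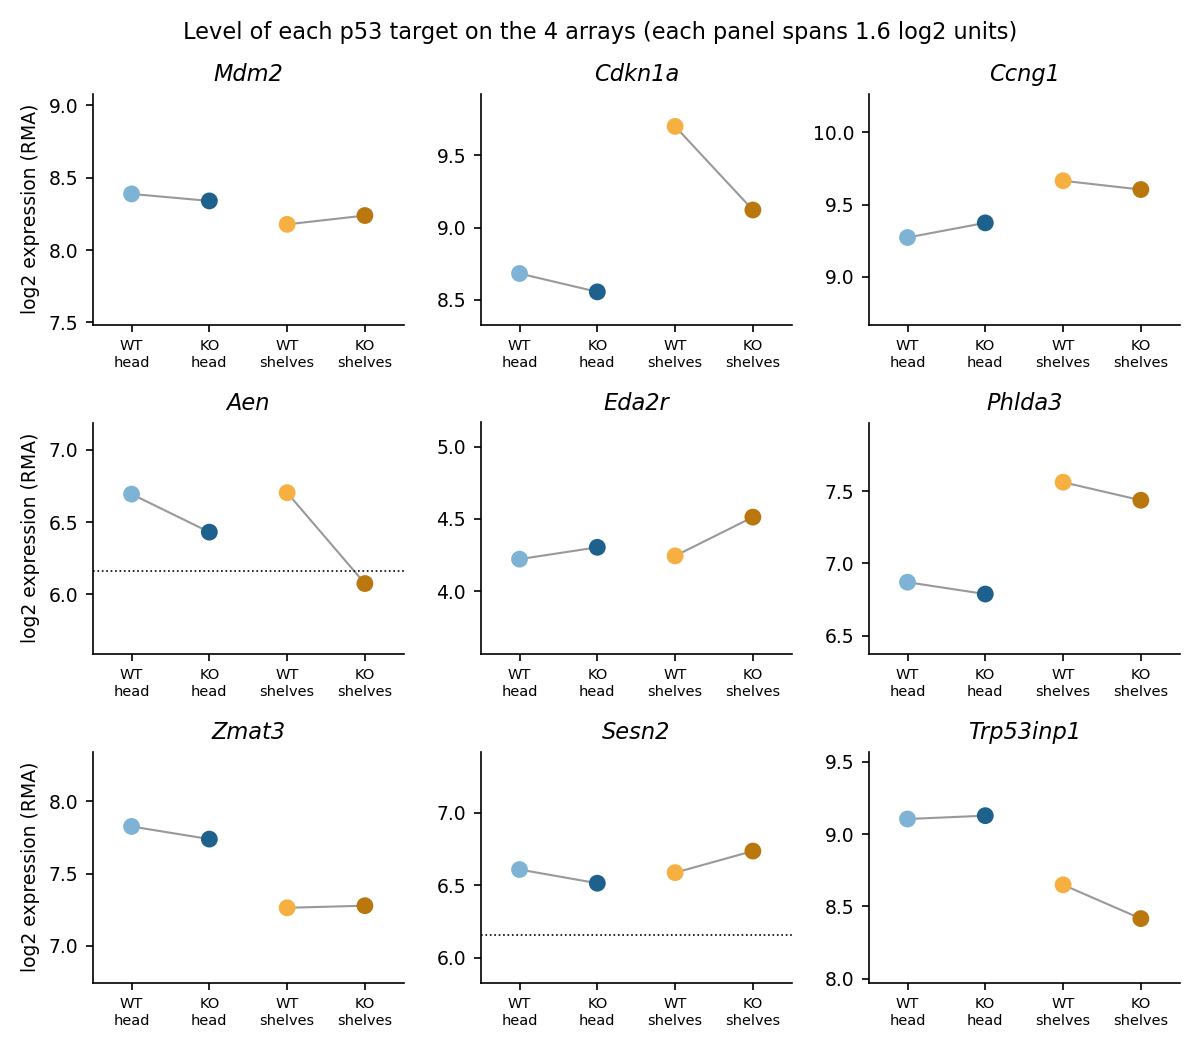
Level of each of the 9 measured p53 targets on the 4 arrays, in log2 expression, with 1 point per array, a line joining wild type (WT) and knockout (KO) of a tissue, and a dotted line at the limit for entry (6.16) where it falls in the panel. Cdkn1a spans 1.14 log2 units and Mdm2 0.21, and Aen in the knockout shelves (6.07) is the 1 point of an entered target below the limit.

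As a group, the targets lay on both sides of 0 in each tissue. In the head, 6 of the 8 targets were below 0, where 55.5% of all genes were, and the median difference was -0.085 beside -0.017 over all genes. None reached 1.5-fold in the head, where 0.458% of genes did either way. In the shelves, 5 of 8 were below 0, where 44.8% of genes were, and the median was -0.093 beside 0.021 over all genes. Aen alone reached 1.5-fold there, where 1.34% of genes were at least 1.5-fold lower and 3.25% passed either way. With quantile normalization applied again, or with cyclic loess, Cdkn1a passed 1.5-fold as well and 2 of 8 did.

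As a technical scale, an SD per cluster was taken from genes with 2 bright clusters, as the spread of the difference read by 1 cluster. It was 0.18 over 232 genes of the head pair and 0.23 over 233 genes of the shelf pair. The gap between 2 clusters of a gene spreads more widely than that. That SD comes from the same arrays and holds no spread between embryos or dissections, so it does not show which differences would recur. In the head, 1 of 8 targets (Aen) lay beyond that SD, where 20.3% of all genes did. In the shelves, 3 of 8 (Aen, Cdkn1a and Trp53inp1) lay beyond it, where 23.3% of all genes did. Aen, Cdkn1a and Phlda3 were below 0 in both tissues, where 25.5% of the 10814 genes that entered both pairs were. The other 5 targets had opposite signs in the 2 tissues, where 48.7% of genes did, and none was above 0 in both. The sign of Zmat3 in the shelves turned with the scaling of the arrays (-0.033 to 0.031).

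**Figure D2:**
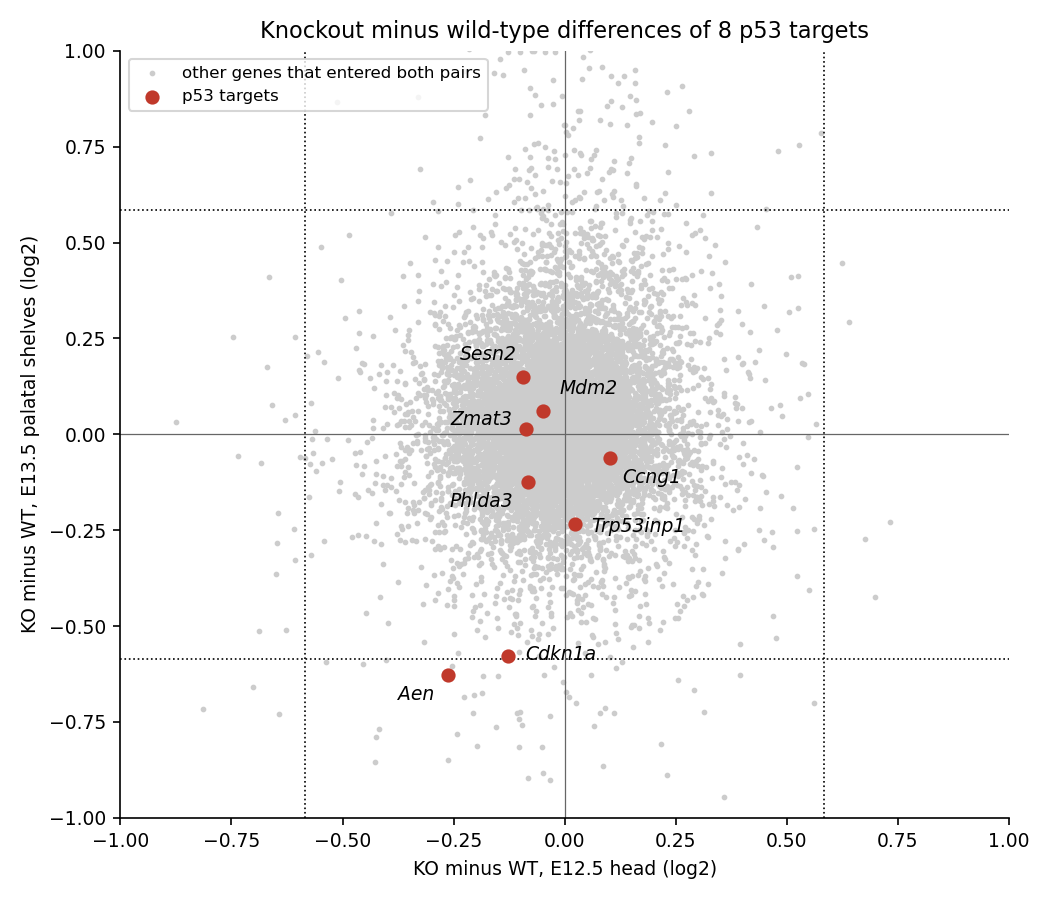
Knockout minus wild-type difference in the E12.5 head (x axis) against the E13.5 palatal shelves (y axis), both in log2, for 8 p53 targets (red, named) and the other genes that entered both pairs (grey), with dotted lines at 1.5-fold. Axes stop at 1 in each direction, so genes beyond that are outside the plot. Aen (-0.26 and -0.63) and Cdkn1a (-0.13 and -0.58) lie below the other 6 targets. In the shelves they ranked 135 and 157 from the lowest among 11449 genes.

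No target passed the test of genotype over both tissues. The test was an additive limma fit of genotype and tissue to the 4 arrays, with 1 residual degree of freedom and Benjamini-Hochberg adjustment over 11999 genes. The SE therefore rests mostly on a prior shared by all genes (5.49 degrees of freedom, SD 0.107). The residual is how far the genotype difference departs between the tissues, and not a spread between replicates. Aen had a coefficient of -0.45 (SE 0.12) and Cdkn1a one of -0.35 (SE 0.13) on the log2 scale, and the limma adjusted p was 0.919 for both. These adjusted p-values ranged from 0.557 to 0.9999 for Aen and from 0.430 to 0.9999 for Cdkn1a over the alternatives. The other 6 coefficients ran from -0.11 for Trp53inp1 to 0.027 for Sesn2, with SEs from 0.099 to 0.11. At an unadjusted limma p under 0.05, 2 of 8 targets (Aen and Cdkn1a) were counted, where 5.23% of genes were. Over all genes, 0 passed the adjusted threshold (0% of those tested). Tbx1, the gene knocked out, did not pass either, with a coefficient of -0.89 (SE 0.16) and a limma adjusted p of 0.555. With a mean-variance trend in limma, 0 of 8 targets passed the adjusted threshold, where 11 of 11999 genes did. At the unadjusted one 2 targets were counted, where 6.33% of genes were. The unadjusted count was 1 of 8 with quantile normalization again (4.66% of all genes) and 1 of 9 without a filter (4.87%). It was 1 of 5 with the upper-quartile filter, which drops Aen (4.91%), and 0 of 8 without tissue in the model (0.325%).

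The comparison of shelves with head separated several targets. Cdkn1a and Phlda3 rose in the palatal shelves and Trp53inp1 and Zmat3 fell there, in the tissue coefficient of the same fit, which sets 2 shelf arrays against 2 head arrays. These 4 of 8 targets passed a limma adjusted p of 0.05, where 27.9% of all genes did, 13% higher and 14.9% lower. Tissue and stage differ together in this comparison and cannot be told apart. The fit has no replicate of any group, so its p-values hold no spread between embryos.

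Cdkn1a had a tissue coefficient of 0.79 (SE 0.13, limma adjusted p 0.0058). In wild type its shelf level was 2.02-fold the head level, and in the knockout 1.48-fold. Phlda3 had a coefficient of 0.67 (SE 0.099, limma adjusted p 0.0035), and its wild-type and knockout differences of 0.69 and 0.65 were close. Trp53inp1 had a coefficient of -0.58 (SE 0.11, limma adjusted p 0.0096), from -0.46 in wild type and -0.71 in the knockout. Zmat3 had one of -0.51 (SE 0.10, limma adjusted p 0.011), from -0.56 in wild type and -0.46 in the knockout. Each of these 4 targets thus kept its direction in both genotypes, and each passed under every alternative in which it was tested.

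Ccng1 lay next in order, with a tissue coefficient of 0.31 (SE 0.10, limma adjusted p 0.068). It passed under 3 of 9 alternatives, with adjusted p-values from 0.010 to 0.18. Mdm2 (-0.16), Sesn2 (0.10) and Aen (-0.17) did not pass. Aen differed by -0.36 between the knockout arrays and by 0.0096 between the wild-type arrays. Between the wild-type arrays alone, Cdkn1a and Phlda3 reached 1.5-fold, 2 of 8 targets, where 17.7% of genes did. The median over the 8 targets was -0.0060, beside -0.034 over all genes, with 4 targets above 0 and 4 below.

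**Figure D3:**
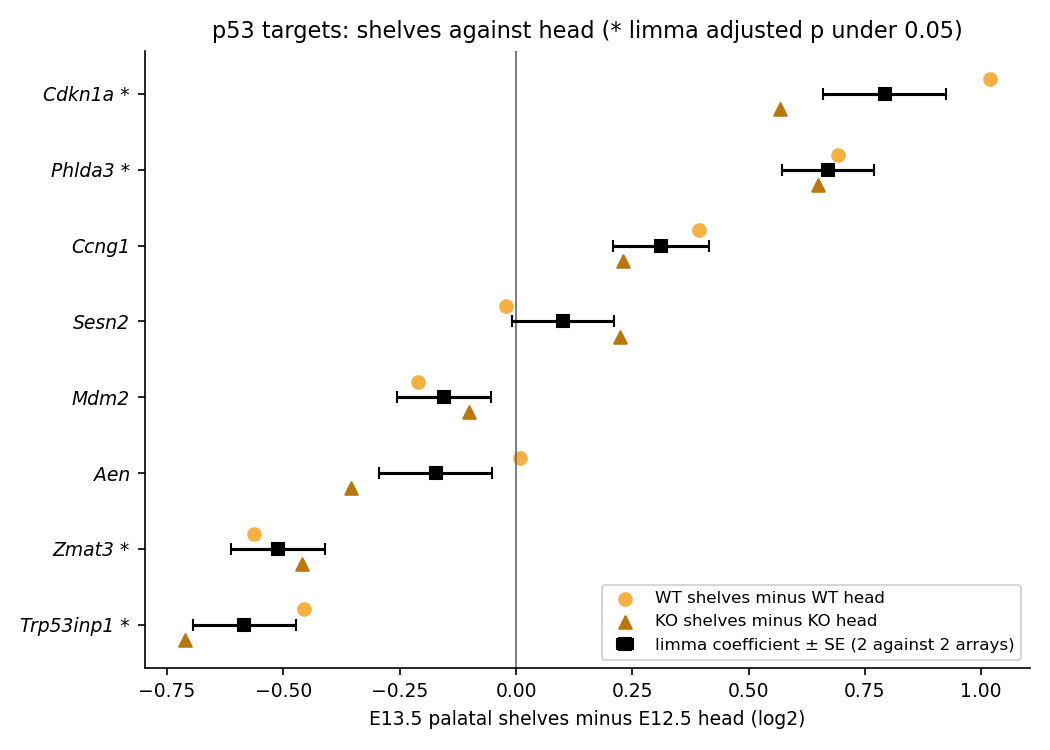
Palatal shelves minus head (x axis, log2) for 8 p53 targets, with circles for the wild-type arrays, triangles for the knockout arrays and squares for the limma coefficient, whose bars are ± 1 SE. Stars mark Cdkn1a and Phlda3, which lie to the right of 0 in both genotypes, and Trp53inp1 and Zmat3, which lie to the left.

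Further p53 targets also lay on both sides of 0. Of 35 such genes, listed as known p53 targets but with earlier results of these data known, 32 had values and 28 entered the shelf pair. No gene of this list reached 1.5-fold in either tissue, where 0.458% of all genes did in the head and 3.25% in the shelves. These shares apply to the lists below as well. In the head the median was -0.030 with 17 of 27 below 0, where 55.5% of all genes were. In the shelves the median was 0.0061 with 12 of 28 below 0, where 44.8% of all genes were. The death genes Pmaip1, Bbc3 and Fas were below the limit on all arrays. Fas came close to it in the wild-type shelves (6.12), with 5.81 in the knockout shelves and 4.33 and 4.61 in the wild-type and knockout head. Apaf1, Tnfrsf10b, Pidd1, Ei24 and Siva1, also tied to cell death, were above the limit on all arrays. In the head the largest differences were those of Ak1, an adenylate kinase (0.28), Tigar, a regulator of glycolysis (-0.28), Perp, a desmosomal protein of stratified epithelia (0.26), and Sesn1, a relative of Sesn2 (0.22). In the shelves they were those of Dcxr, a carbonyl reductase (-0.47), Sfn, an epithelial 14-3-3 protein (-0.32), Epha2, an ephrin receptor (0.28), and Polk, a DNA polymerase of damage bypass (0.26). No gene of the list passed the genotype test, at an adjusted or an unadjusted limma p under 0.05.

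Between shelves and head, 10 of the 28 tested genes of that list passed, 5 higher and 5 lower in the shelves, where 27.9% of all genes did. Perp rose by 2.06 (limma adjusted p 0.00013), from 7.31 and 7.56 in the wild-type and knockout head to 9.54 and 9.44 in the shelves. Trp53i11 had a coefficient of -1.23, Plk3, a stress-responsive kinase, one of -0.92, and Rprm, a mediator of arrest before mitosis, one of -0.79, each with a limma adjusted p under 0.05. Perp is also a target of the p53 relative Trp63, which specifies stratified epithelium. Trp63 rose by 1.24 in the shelves (limma adjusted p 0.00041). In the wild-type and knockout head it was at 6.78 and 6.84, and in the shelves at 8.13 and 7.99. The part of Trp63 in the tissue difference of Perp was not tested.

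Of the p53 family and its regulators, Chek2 and Rpl11 had the largest genotype differences, both in the head. Of 23 listed genes, 22 had values, and Trp53 itself was not analysed here. No gene of this list reached 1.5-fold in either tissue, and the medians were -0.0082 in the head and -0.048 in the shelves. Mdm4, the relative of Mdm2 that blocks p53 activity, was at 9.10 and 9.05 in the wild-type and knockout head and at 9.20 and 9.43 in the wild-type and knockout shelves. Chek2, a kinase that phosphorylates p53 after DNA breaks, was at 7.03 in the wild-type head and 6.56 in the knockout head, a difference of -0.47 that ranked 88 from the lowest, and differed by -0.16 in the shelves. The limma adjusted p of Chek2 was 0.919. Rpl11, a ribosomal protein that binds Mdm2 when ribosome assembly fails, differed by -0.40 in the head, which ranked 140 from the lowest, and by -0.057 in the shelves. Rpl5, its partner in that binding, differed by 0.25 in the head and -0.28 in the shelves. Both ribosomal protein genes have many near-identical pseudogene copies, so their array levels are uncertain. Between the tissues, 4 of 21 passed, where 27.9% of all genes did. Trp63 and Trp73 rose in the shelves, and Hipk2, a kinase of p53, and Trp53bp1, a DNA-repair adaptor, fell there.

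Genes that p53 lowers through p21, such as the mitotic regulators Cdk1, Ccnb2 and Plk1, had values for 14 of 15 and none reached 1.5-fold. Their medians were -0.072 in the head and 0.039 in the shelves. In the shelves 8 of 14 were above 0, where 55.2% of all genes were, and they ran from -0.23 for Ccna2, a cyclin of S phase, to 0.12 for Aurkb, a mitotic kinase. In the head 10 of 14 were below 0, where 55.5% of all genes were, led by Cdc25c, a phosphatase that starts mitosis (-0.28), and Foxm1, a factor of mitotic genes (-0.25).

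Nucleolar and ribosome assembly genes, whose loss in neural crest activates p53, had 9 of 10 genes with values and none reached 1.5-fold. Their medians were -0.13 in the head and -0.0083 in the shelves. Tcof1 was at 8.40 and 8.21 in the wild-type and knockout head and at 8.12 and 8.13 in the shelves.

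The integrated stress response, which induces Sesn2 apart from p53, had 6 of 12 genes above the limit for entry. Ddit4, an inhibitor of mTORC1 that p53, low oxygen and this response can each induce, was at 8.01 in the wild-type head, 8.17 in the knockout head, 8.07 in the wild-type shelves and 9.02 in the knockout shelves. The knockout shelf array stood apart from the other arrays, with a difference of 0.95 (1.93-fold), and Ddit4 was the 1 gene of the list past 1.5-fold. The other genes of the response ran from -0.015 for Asns, asparagine synthetase, to 0.40 for Vldlr in the shelves, and Ddit3 and Atf4, its central factors, were at -0.0028 and 0.091. No gene of this list passed the genotype test, and the limma adjusted p of Ddit4 was 0.919.

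**Figure D4:**
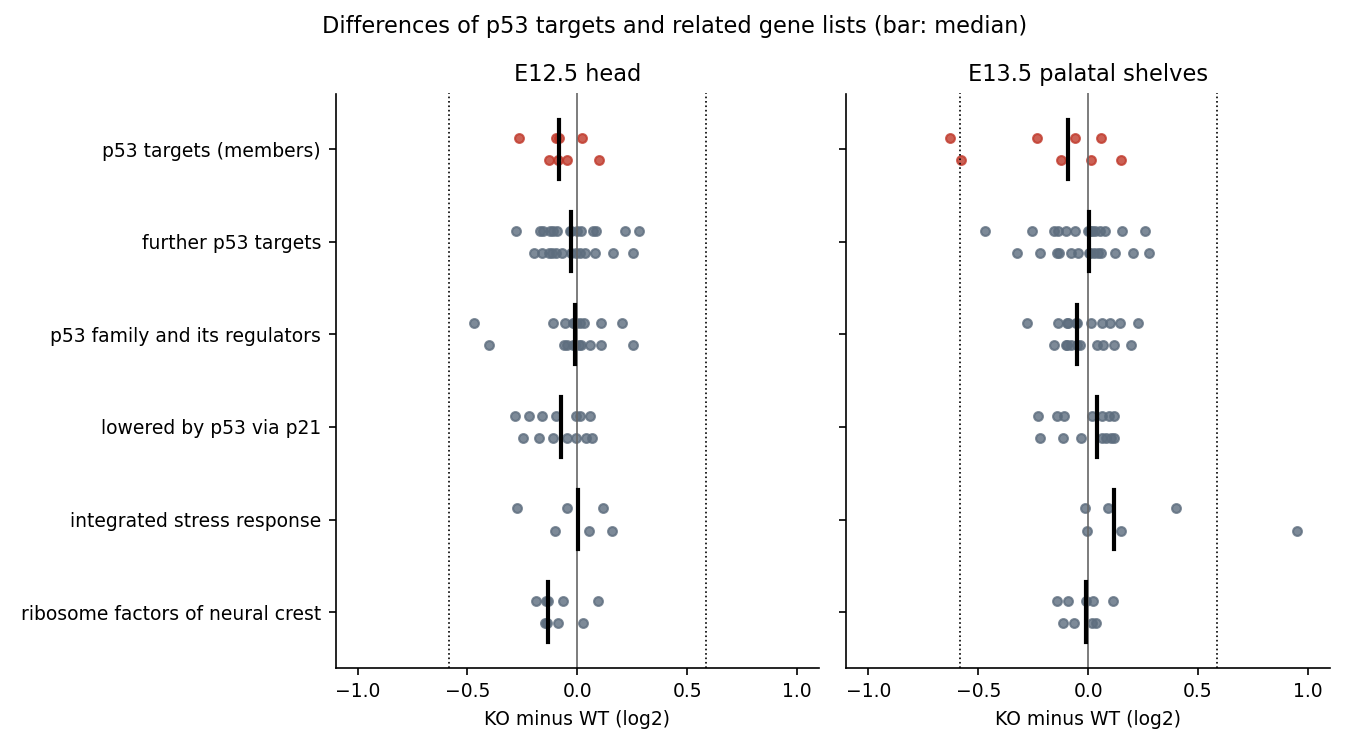
Knockout minus wild-type difference (x axis, log2) of each gene that entered, for the 8 p53 targets (red) and 5 related gene lists (grey), in the head (left) and the palatal shelves (right). Black bars are medians, dotted lines mark 1.5-fold, and vertical stagger has no meaning. Ddit4 (0.95) in the shelves and Aen (-0.63) are the 2 points past 1.5-fold.

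Markers of other tissues differed with genotype in the shelves, beside the lower levels of Aen and Cdkn1a. Skeletal muscle markers were lower in 8 of 8, where 44.8% of all genes were. Their mean level was 7.34 in the wild-type and 6.02 in the knockout shelves. Neuron markers were higher in 7 of 7, where 55.2% of all genes were, with means of 8.21 and 8.88. Hypoxia response genes were at least 1.5-fold higher in 5 of 5 that entered, where 219 of all 11449 genes were. The mean over the 7 with values was 6.85 in the wild-type and 7.73 in the knockout shelves. Macrophage markers were mixed, lower in 3 of 4 that entered, where 44.8% of all genes were. They ran from -0.76 for Fcer1g to 0.24 for Cd68, which was higher in the knockout. In the head, muscle markers were lower in 8 of 8 (means of 7.43 and 6.64), beside the lower level of Aen. Erythroid markers were lower there in 5 of 5 (means of 9.20 and 8.74). Of all genes, 55.5% were below 0 in the head. The part of these tissues in the levels of the p53 targets was not tested.

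Between tissues most markers followed the labels. Palatal mesenchyme markers such as Osr2 and Pax9 rose in the shelves in 5 of 6 tested, and oral epithelium markers in 6 of 6. The remaining palatal mesenchyme marker, Osr1, was lower in the shelves in both genotypes (-0.37 in wild type and -0.20 in the knockout). Neuron markers fell in 7 of 7 and erythroid markers in 5 of 5. These counts are at a limma adjusted p under 0.05, where 13% of all genes rose and 14.9% fell. The tissue differences of Cdkn1a, Phlda3, Trp53inp1 and Zmat3 stand beside these marker differences, and the part of the marker tissues was not tested.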

How the data were processed

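Per the submitters' processing notes, the authors made the deposited log2 expression values with Affymetrix Expression Console and RMA, which corrects background, gives the arrays 1 distribution and summarises probes. RMA therefore takes out any shift common to most genes and understates folds of dim ones. Versions, build and annotation are left out, as not given in the sources used here. Total RNA (100 ng) was labelled with biotin, per the labels. The E13.5 samples are called heads in 1 label field. Title, source and tissue name palatal shelves and were followed.

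Clusters with 1 symbol in the platform annotation (23521 of 41345) were averaged per gene. Fits used limma 3.58.1 in R 4.3.3, and their code was run on simulated data. The simulated shifts were equal in both tissues and larger than any genotype coefficient of the targets. That run does not show what the fit would find for the targets. With 1 array per group, p-values hold no spread between embryos. In the additive fit they rest on the prior and on how far the genotype difference departs between the 2 tissues. Members and lists were chosen with earlier results of these data known. Named genes are all members, Mdm4, Tbx1, and from each list a selection of up to 4 genes per comparison with the largest absolute difference or smallest p (for marker lists, up to 2). Others serve as examples: Plk1, Pmaip1, Bbc3, Fas, Apaf1, Tnfrsf10b, Pidd1, Ei24, Siva1, Osr1 and Cd68 were named after their values were seen. The number of arrays limits the precision. Alternatives were array scaling, the brightest cluster, filters on dim genes, the fold, the mean and the form of the fit.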

Additional observations from a re-analysis of the deposited data

Results flagged for a closer look

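The knockout minus wild-type difference had opposite signs in the head and the palatal shelves for 5 of the 8 p53 targets, which is why they are listed here. The difference between the tissues was not tested, and with 1 array per group it has no replicate check. Mdm2 was at -0.048 in the head and 0.061 in the shelves. Ccng1 was at 0.10 and -0.061, Trp53inp1 at 0.023 and -0.23, Sesn2 at -0.095 and 0.15, and Zmat3 at -0.087 and 0.015, the last changing sign with the scaling of the arrays. Of all genes, 48.7% had opposite signs. The spread between embryos of a group was not measured.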

How the results depend on the processing

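The head median of the p53 targets ranged from -0.10 to -0.048 over 7 alternatives and no target reached 1.5-fold in the head under any of them. The shelf median ranged from -0.18 to -0.061, the lowest being the mean over targets used instead (-0.18). The count past 1.5-fold in the shelves, 1 of 8, became 2 with quantile normalization again and with cyclic loess, where Cdkn1a passed. It became 0 at 2-fold and 0 with the upper-quartile filter, which leaves 4 targets and drops Aen. Zmat3 in the shelves ranged from -0.033 to 0.031, so its sign there depends on the scaling. Between the wild-type arrays, the count of 2 became 1 at 2-fold and 1 with the upper-quartile filter, and the median became -0.21 with that filter, which leaves 5 targets. Their mean was 0.11, and the count became 3 with each array centred on its median, where Zmat3 reached -0.62. No target passed the genotype test under 9 alternatives, and 4 or 5 passed the tissue test, which 27.9% of all genes passed in the fit used above. Ccng1 passed it with the upper-quartile filter, the mean-variance trend and without genotype in the model. Leaving out an array leaves no residual degree of freedom in the additive fit, so it was not run. The additive fit has tissue as a block for genotype. No paired analysis was possible, because no embryo gives both an E12.5 head and E13.5 shelves. The labels also tie no embryos of the 2 genotypes together.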

Other observations

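A second transcript cluster carries the symbol Zmat3 together with 4930429B21Rik and was not used for Zmat3. It was at 6.08 in the wild-type head, 5.66 in the knockout head, 5.76 in the wild-type shelves and 5.34 in the knockout shelves, below the limit for entry on every array. Its differences were -0.42 in both tissues, whereas the cluster that carries Zmat3 alone differed by -0.087 and 0.015. Which of the 2 genes its probes read was not tested.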
